A study of Mus musculus with 12 samples.

Results

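The fading and the late gains of the response to bacterial lipopolysaccharide (LPS) were followed by comparing dendritic cells after 24 h of LPS with cells after 6 h. The comparison takes the 3 arrays labelled LPS 24 h and the 3 labelled LPS 6 h, which are 6 of the 12 arrays of the series. The cells were grown from mouse bone marrow depleted of B and T cells, for 5 days with 10 ng/ml GM-CSF and 5 ng/ml IL-4, and both groups then received LPS at 100 ng/ml. The labels name no strain, genotype, sex or age, and no sort of the cells is named, so that the collected cells may hold more than 1 type. Cells before LPS and after 1 h, with 3 arrays each, complete the series and enter the same fit. The labels give each replicate a donor tag, A, B or C. No cells were kept for 24 h without LPS, so a further 18 h of culture and a further 18 h of LPS cannot be told apart.

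LPS, a component of the outer membrane of Gram-negative bacteria, is sensed by Tlr4 together with its co-receptors Cd14 and Ly96. One arm of the signal runs through Myd88 to NF-kB and turns on cytokines and chemokines within minutes to hours. The other runs through Ticam1 to interferon beta, which acts back on the cell and turns on antiviral genes through the interferon-stimulated response element in their promoters. Inhibitors made during the response, such as phosphatases and RNA-degrading proteins, limit it later, while the mature dendritic cell presents antigen and moves to lymph nodes.

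The promoters of several of the genes that fell hold that response element, and they are shown because the interferon-stimulated genes had the most falls of all lists of genes examined. The pattern searched was GAAA, any 2 bases, then GAAA, on either strand, in the window from 250 bases before to 50 bases after the annotated start (RefSeq, build GRCm38.p6). Each stretch reads 5′ to 3′ along the gene's own strand, and capitals mark the match or the overlapping matches.
Cxcl10: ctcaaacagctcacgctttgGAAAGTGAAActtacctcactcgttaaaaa
Rsad2: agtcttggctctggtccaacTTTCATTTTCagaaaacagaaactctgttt
Isg15: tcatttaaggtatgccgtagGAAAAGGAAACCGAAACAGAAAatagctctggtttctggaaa
Tgtp1: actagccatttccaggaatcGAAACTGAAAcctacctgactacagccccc
Irgm1: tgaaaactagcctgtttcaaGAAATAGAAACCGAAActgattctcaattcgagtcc
Igtp: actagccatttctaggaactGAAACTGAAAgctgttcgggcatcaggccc
Bst2: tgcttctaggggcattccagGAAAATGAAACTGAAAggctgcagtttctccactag

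These stretches lie at chr5:92349073-92349122 (Cxcl10, minus strand), chr12:26456543-26456592 (Rsad2, minus), chr4:156200855-156200916 (Isg15, minus) and chr11:48992294-48992343 (Tgtp1, minus). The others lie at chr11:48871415-48871470 (Irgm1, minus), chr11:58199502-58199551 (Igtp, plus) and chr8:71537567-71537622 (Bst2, minus). In Rsad2 the match is on the opposite strand, and Isg15 holds 3 overlapping matches. Of the 7 genes shown, 6 fell from 6 h to 24 h and Bst2 rose. All 7 hold a match, whereas Cmpk2, Ifit2 and Ifi47, which also fell, had no match in the window. Of 8980 tested genes with a promoter in the table, 362 held the pattern (4.03%), against 72 of 759 genes that fell (9.49%), 34 of 197 that fell by at least 2-fold (17.3%) and 23 of 882 that rose (2.61%). Among the lists of genes used below, 15 of 31 interferon-stimulated genes and 8 of 8 interferon-induced GTPases with a promoter held it. A match is a stretch of letters and not a measured binding site.

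Each value is the log2 ratio of a sample to a pooled mouse reference RNA that was the same on every array, called the level below. A change is the mean level at 24 h minus the mean level at 6 h, with the standard error (SE) of the limma fit and n = 3 arrays per group, and a gene was called when its limma p, adjusted by Benjamini and Hochberg over all 11108 genes tested, was under 0.05. The lists of genes named below held 1093 genes, of which 63 had no named probe, Acod1, Cd40 and Il12b among them, and are not analysed here, and 83 did not pass the filter on dim probes. Levels are compared between groups for 1 gene at a time, never between genes. Arrays of 1 group correlated across genes at r = 0.957 to 0.984 in the 6 arrays, and the first principal component (55.2% of the variance) held the 6 h arrays between -27.2 and -17.7 and the 24 h arrays between 20 and 29.4. The 6 arrays lay on 3 slides, with 6 h arrays A and B on one, 24 h array B on a different one, and 6 h array C with 24 h arrays A and C on another, slide 4, which alone holds both groups.

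At 24 h, 1071 genes were higher than at 6 h (9.64% of those tested) and 970 were lower (8.73%), together 18.4%. By at least 2-fold, 173 were higher (1.56%) and 252 were lower (2.27%), though with normexp on every local background as deposited 152 were higher and 119 lower. The 3 arrays at 24 h all lay above the 3 at 6 h for 19.7% of genes and all below for 15.3%. With slide as a block 867 genes were called, 425 higher (3.83%) and 442 lower (3.98%), and 824 of the 2041 kept call and direction. Median centring of the arrays in place of loess lowered the median change of all genes from 0.04 to -0.18, and 95 genes then rose and 830 fell, so the balance of rises and falls depends on the scaling. The pooled reference, tested alone as a control, gave 12 calls (370 genes at an unadjusted p under 0.05).

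**Figure D1:**
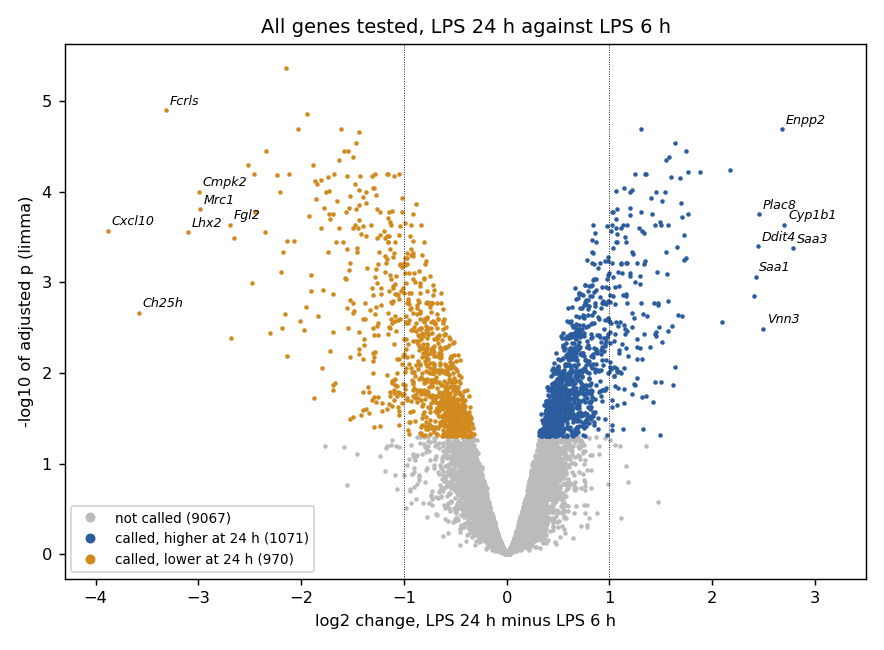
Each point is 1 of 11108 genes, with the log2 change from 6 h to 24 h of LPS on the horizontal axis and -log10 of the limma adjusted p on the vertical axis; dotted lines mark 2-fold. Blue points are the 1071 genes called higher at 24 h, orange points the 970 called lower, and grey points the rest. The largest falls (Cxcl10, Ch25h, Fcrls) reach further from 0 than the largest rises (Saa3, Cyp1b1, Enpp2).

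The largest fall was that of Cxcl10, a chemokine that draws activated T cells and is induced by interferon. Its level was 6.41, 7.12 and 5.54 at 6 h in donors A, B and C, and 1.20, 2.85 and 3.39 at 24 h. All 24 h arrays lay below all 6 h arrays, a difference of 14.7-fold (log2 change -3.88, SE 0.49, adjusted p = 0.000268). The mean of 2.48 at 24 h still stood above the unstimulated mean of -1.19.

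Ch25h, the enzyme that makes the antiviral oxysterol 25-hydroxycholesterol, had levels of 5.00, 6.59 and 4.26 at 6 h and 1.58, 2.09 and 1.45 at 24 h. The groups did not overlap, and the fall was large and called (-3.58, SE 0.62, adjusted p = 0.00216). Its 24 h mean of 1.70 was close to the unstimulated mean of 1.30, a difference of 0.40 that was not called. Lhx2, a LIM homeobox transcription factor, followed the same course, from 2.03, 2.89 and 0.80 at 6 h to -1.61, -0.89 and -1.08 at 24 h (-3.1, SE 0.39, adjusted p = 0.000281), with an unstimulated mean of -1.51. Cmpk2, a mitochondrial nucleotide kinase of the interferon response, fell from 6.06, 6.10 and 5.49 to 1.98, 3.00 and 3.69 (-3.00, SE 0.32, adjusted p = 1e-04), and unlike Lhx2 it stayed above its unstimulated mean of -0.17.

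Other large falls ended below the level before LPS. The receptor-like gene Fcrls stood at 4.69, 4.37 and 4.00 at 6 h and at 1.45, 1.15 and 0.53 at 24 h (-3.31, SE 0.22, adjusted p = 1.27e-05), against an unstimulated mean of 4.79. The mannose receptor Mrc1, an endocytic receptor for glycans, stood at 3.38, 4.03 and 3.19 at 6 h and at 0.96, 0.61 and 0.10 at 24 h, where it was well above background on 2 of 3 arrays (-2.98, SE 0.34, adjusted p = 0.000157). Its unstimulated mean was 3.48. Fbp1, which encodes the gluconeogenic enzyme fructose-1,6-bisphosphatase, fell from 7.06, 7.67 and 6.57 to 5.60, 4.74 and 2.91 (-2.69, SE 0.52, adjusted p = 0.00407), below its unstimulated mean of 6.12, with the 24 h array of donor C lowest.

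The rest of the 15 largest falls ran from -2.69 to -2.34. They were Fgl2, Ifit2, Timeless, Ccl7, Tgtp1, Iigp1, Clec5a and Ifi47. Timeless, which takes part in replication fork protection, was tight in both groups, at 1.53, 1.40 and 1.63 against -0.86, -0.89 and -1.24 (-2.52, SE 0.23, adjusted p = 5.09e-05). Probes disagreed for Tgtp1, whose second probe changed by -0.17 (adjusted p = 0.437), and for Clec5a, whose other probes gave -1.64 and -0.35. All 15 kept their call with slide as a block, while with normexp run on every local background as deposited Fcrls, Mrc1, Fbp1, Ifit2 and Ifi47 lost theirs.

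**Figure D2:**
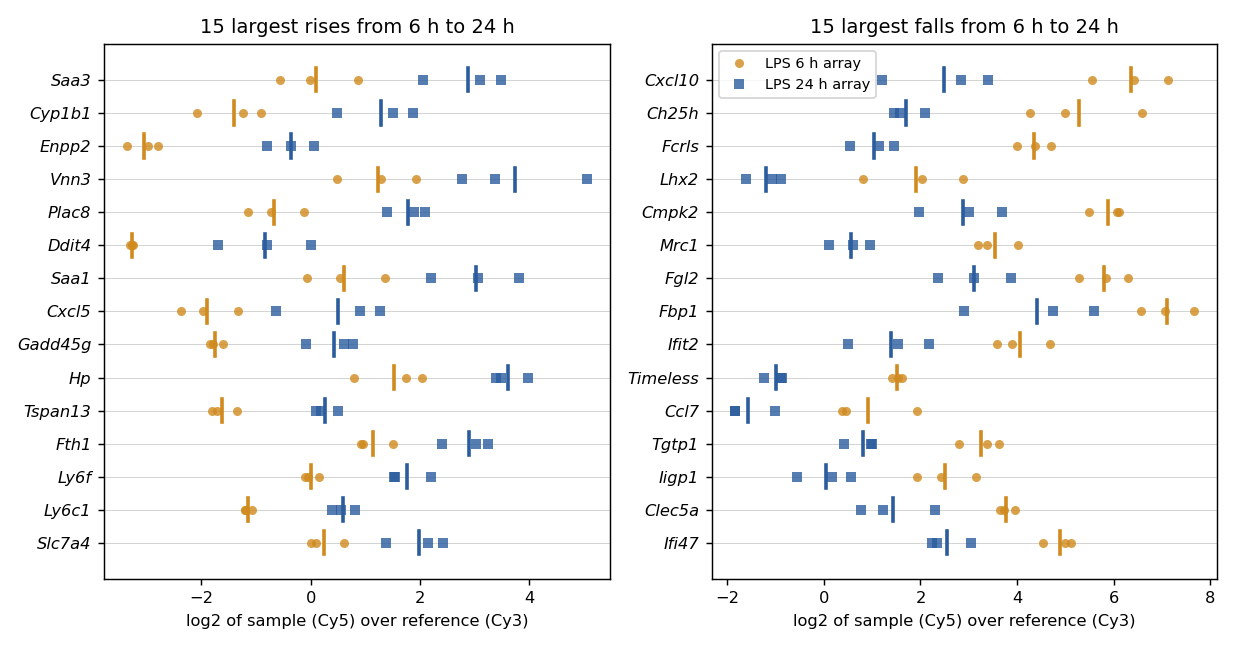
Every point is 1 array, with the level (log2 of sample over reference) on the horizontal axis, orange circles for LPS 6 h, blue squares for LPS 24 h and vertical bars for group means. The left panel holds the 15 largest rises and the right panel the 15 largest falls among called genes whose groups do not overlap. Groups are separate in every row because that was a condition for the choice, and Cxcl10, with 5.54 to 7.12 at 6 h and 1.20 to 3.39 at 24 h, has the widest shift.

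The interferon-stimulated antiviral genes fell together. Of 41 tested, 28 were lower at 24 h, 1 was higher and 12 were not called, beside 8.73% and 9.64% of all genes, and the median change was -1.09 (0.04 for all genes). Their mean level was 3.1 to 3.52 on the 6 h arrays and 1.81 to 2.42 on the 24 h arrays. It remained above the unstimulated level, with a median change against unstimulated cells of 3.14 at 6 h and 1.93 at 24 h; both comparisons share the unstimulated arrays.

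Rsad2, which encodes the antiviral enzyme viperin, stood at 7.10, 7.71 and 6.45 at 6 h and at 3.74, 4.87 and 5.74 at 24 h (-2.30, SE 0.44, adjusted p = 0.00361), with no overlap. Isg15, a ubiquitin-like modifier, moved less, from 4.37, 4.37 and 4.18 to 2.72, 3.30 and 3.62 (-1.09, SE 0.22, adjusted p = 0.00479). For Rsad2, Isg15, Cmpk2 and Cxcl10 alike, donor A had the lowest 24 h value. Ifit2, which binds foreign RNA, changed by -2.65 (SE 0.35), and the interferon-induced GTPase Ifi47 by -2.34 (SE 0.20). The cytosolic RNA sensors Ifih1 (MDA5) and Ddx58 (RIG-I) changed by -2.14 (SE 0.28) and -1.64 (SE 0.21), and Dhx58, another member of that family, by -1.08 (SE 0.16). Each of these passed. Other probes of Ddx58 gave smaller falls, -1.20 and -0.53, which were also called.

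Bst2, which tethers budding virus to the cell surface, was the exception among the called members, at 2.01, 2.11 and 2.14 at 6 h and 2.38, 2.58 and 2.59 at 24 h (0.43, SE 0.13, adjusted p = 0.0351). The slide block ended its call (0.42, adjusted p = 0.17), and median centring gave a change of -0.02. Interferon beta itself, Ifnb1, had levels of 4.2, 4.55 and 2.33 at 6 h and 1.34, 1.79 and 2.67 at 24 h, which overlapped, and the change of -1.76 (SE 0.61) was not called (adjusted p = 0.0631; the donor block gave 0.0377). With slide as a block 24 interferon-stimulated genes fell and 0 rose (median -0.94, and -0.88 within slide 4), and without 1 array at a time 23 to 31 fell. With normexp on every local background as deposited 7 fell.

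The interferon-induced GTPases, which attack membranes around intracellular pathogens, went the same way. Of 14 tested 12 fell and 0 rose, beside 8.73% and 9.64% of all genes. Their median was -1.17, and all 14 changes were below 0. The mean level was 2.85 to 3.57 at 6 h and 1.64 to 2.22 at 24 h. Irgm1, a regulator of the family, went from 3.18, 3.38 and 2.49 to 1.05, 1.51 and 0.92 (-1.86, SE 0.20, adjusted p = 0.000119), and Igtp from 2.61, 2.55 and 2.23 to 0.60, 0.82 and 0.94 (-1.68, SE 0.16, adjusted p = 6.46e-05). Iigp1 changed by -2.45 (SE 0.29) and Tgtp1 by -2.46 (SE 0.24). The count of falls was 8 with slide as a block (median -1.04, and -0.93 within slide 4), 8 without 6 h array B, 8 without 24 h array A, and 4 with normexp on every local background as deposited.

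Cytokines split. Of 25 inflammatory cytokines and regulators 6 fell and 0 rose in the limma fit, beside 8.73% and 9.64% of all genes (median -0.14), and with normexp on every local background as deposited 1 fell (median 0.05). Tnf, a first-wave cytokine, stood at 5.19, 5.31 and 4.75 at 6 h and at 3.37, 3.52 and 3.76 at 24 h, a fall of 2.89-fold (-1.53, SE 0.17, adjusted p = 0.000153). Il15 and Il18, which act on lymphocytes and natural killer cells, changed by -1.07 (SE 0.24) and -0.96 (SE 0.16). Il19, of the IL-10 family, was well above background on all 6 h arrays and on no 24 h array and was called lower (adjusted p = 0.0183, or 0.15 with slide as a block).

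Other strongly induced interleukins were not called between 6 h and 24 h. Il6 stood at 8.17, 8.43 and 7.02 at 6 h and at 6.44, 7.71 and 7.67 at 24 h (-0.60, SE 0.46, adjusted p = 0.404). Il1b, the precursor of interleukin 1 beta, stood at 8.08, 8.03 and 7.60 and then at 7.59, 8.49 and 8.08 (0.15, SE 0.30, adjusted p = 0.778). Both sets of arrays overlapped, and both genes remained far above their unstimulated means of 1.36 and 3.40. The interleukin 1 antagonist Il1rn changed by 0.09 (SE 0.22, adjusted p = 0.823). These small changes have no firm sign: that of Il6 was 0.03 within slide 4 and 0.50 with normexp as deposited, and those of Il1b and Il1rn were below 0 with median centring (-0.23 and -0.29) and in the Cy5 channel alone (-0.03 and -0.20).

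Chemokines split too. Of 22 tested 7 fell and 1 rose, beside 8.73% and 9.64% of all genes, with a median of -0.16. The monocyte attractants Ccl2, Ccl7 and Ccl12 changed by -2.01 (SE 0.36), -2.48 (SE 0.38) and -1.90 (SE 0.30). Ccl2 stood at 1.92, 2.70 and 1.95 at 6 h and at -0.09, -0.44 and 1.08 at 24 h, near its unstimulated mean of -0.45. Ccl7 stood at 0.46, 1.93 and 0.38 and then at -1.83, -1.84 and -1.0. The single rise was Cxcl5, an attractant of neutrophils, from -1.98, -1.33 and -2.38 to -0.64, 1.26 and 0.89 (2.40, SE 0.39, adjusted p = 0.00142); donor A was lowest at 24 h and the groups did not overlap. The slide block left 5 falls and 1 rise.

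**Figure D3:**
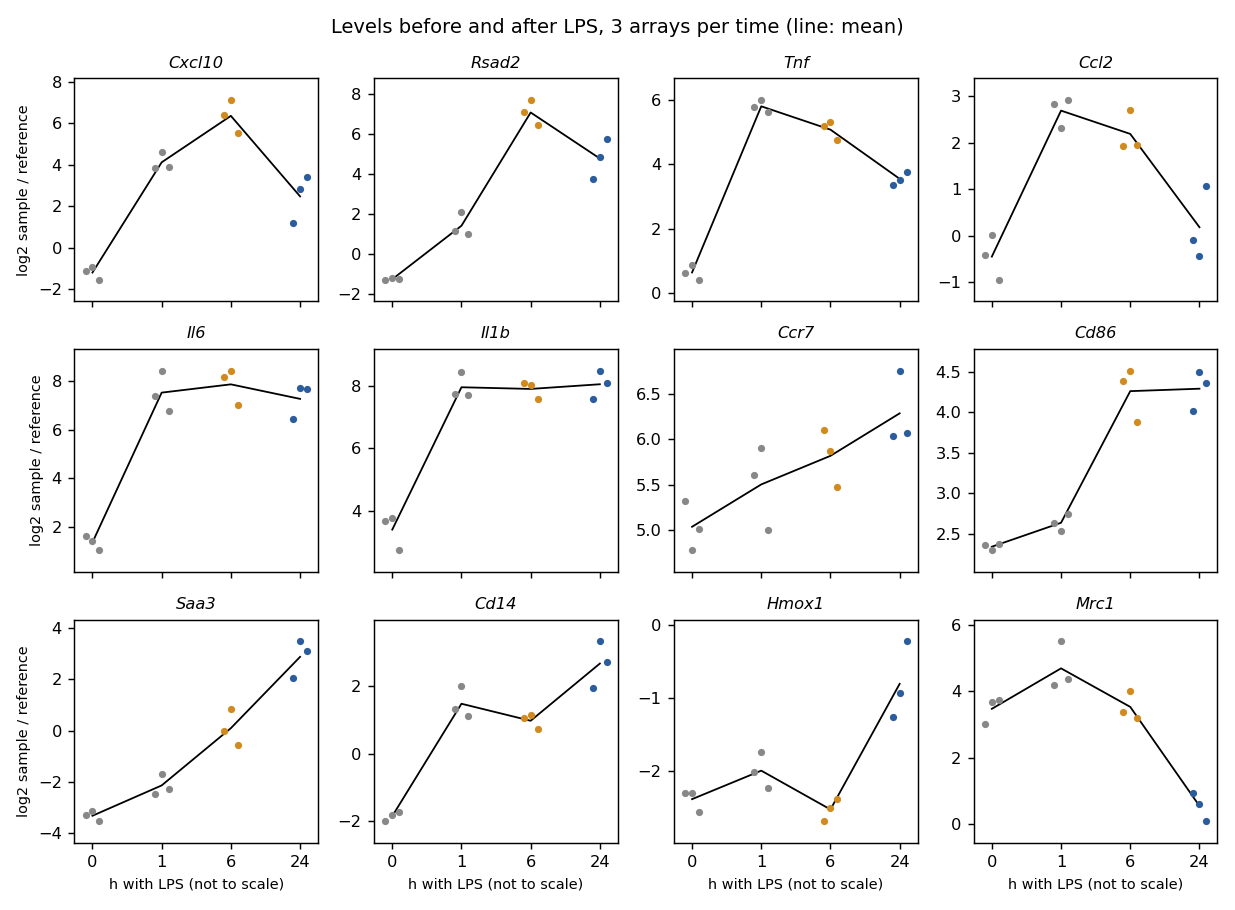
Levels of 12 genes (log2 of sample over reference, vertical axis, own scale for each gene) before LPS and after 1, 6 and 24 h (horizontal axis, not to scale). Each point is 1 array and lines join the means of 3. Cxcl10, Rsad2, Tnf, Ccl2 and Mrc1 fell from 6 h to 24 h, Il6, Il1b, Ccr7 and Cd86 were not called, and Saa3, Cd14 and Hmox1 rose.

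Genes that LPS had raised early were followed from 6 h to 24 h. Of the genes tested, 215 were called at least 2-fold higher at 1 h than in unstimulated cells (1.94%), a contrast of the 1 h and unstimulated means, although the filter on dim probes and the estimate of spread drew on all 12 arrays. From 6 h to 24 h, 55 of them fell (25.6%, against 8.73% of all genes) and 16 rose (7.44%, against 9.64%), and their median change was -0.21. The slide block gave counts of 29 and 8 of 215 and a median of -0.24. The largest falls among them were those of Cxcl10, Ch25h, Mrc1, Ccl7 and Clec5a. Of their promoters 15 of 167 held the NF-kB pattern (GGG, any 2 bases, then TTTCC, on either strand) (8.98%), beside 1.92% of all tested genes with a promoter.

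The share of early genes that rose, 7.44%, was near the 9.64% of all genes, and 3 early genes rose with median centring. Cd14, the LPS co-receptor, stood at 1.05, 1.16 and 0.72 at 6 h and at 1.96, 3.34 and 2.73 at 24 h (1.70, SE 0.30, adjusted p = 0.00232), above its 1 h mean of 1.48. Dusp4, a phosphatase that switches off MAP kinases, went from 0.90, 0.79 and 0.34 to 1.93, 2.51 and 2.08 (1.5, SE 0.19, adjusted p = 0.000231) after a 1 h mean of 2.08, so its mean was lowest of the 3 LPS times at 6 h. Procr, the endothelial protein C receptor, changed by 1.57 (SE 0.26) and Timp1, an inhibitor of metalloproteinases, by 1.62 (SE 0.39). The call of Timp1 was lost without 6 h array A (1.43, adjusted p = 0.0633). Mt2, a metal-binding metallothionein, changed by 1.27 (SE 0.26), a call lost with slide as a block (1.11, adjusted p = 0.066).

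**Figure D4:**
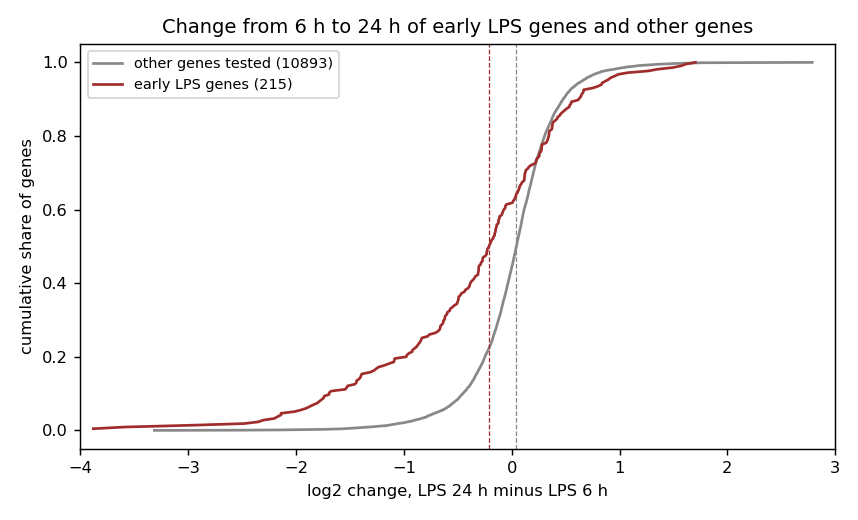
Cumulative share of genes (vertical axis) against the log2 change from 6 h to 24 h (horizontal axis) for the 215 genes already raised at 1 h (red) and the 10893 other genes tested (grey), with dashed lines at the medians. The red curve lies to the left over the falls, with a median of -0.21 against 0.04 for the others.

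Receptors and adaptors of LPS sensing did not move as 1 unit. Of 20 tested, 6 fell and 2 rose (median -0.21), beside 8.73% and 9.64% of all genes. The share that rose was near that of all genes. Besides Cd14, the adaptor of the interferon arm, Ticam1, rose (0.97, SE 0.15), while Myd88, the adaptor of the other arm, went from 1.89, 1.95 and 1.80 to 1.02, 1.07 and 0.90 (-0.88, SE 0.10, adjusted p = 0.000137). The RNA sensor Tlr7 changed by -1.44 (SE 0.30), Tlr2, which senses lipoproteins, by -1.31 (SE 0.34), and Ly86, an Ly96 relative, by -1.38 (SE 0.23). Tlr4 was not called (0.46, SE 0.30, adjusted p = 0.322). Without 6 h array B or 24 h array C 3 of the 20 fell. The call of Tlr2 was lost without 6 h array A (-1.36, adjusted p = 0.0539), 6 h array B (-1.01, adjusted p = 0.081) or 24 h array C (-1.11, adjusted p = 0.0824).

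NF-kB subunits and inhibitors had 4 of 27 lower, 1 higher and a median of -0.16, where 8.73% of all genes were lower and 9.64% higher. With slide as a block 1 was lower. The one that kept its call, Tnip3, an inhibitor that binds A20, changed by -1.74 (SE 0.24). Nfkbiz, a co-activator of secondary genes, changed by -1.24 (SE 0.38, adjusted p = 0.0379), but not with slide as a block (-0.78, adjusted p = 0.17). The count of falls was 2 without 6 h array B and 1 without 6 h array A, 24 h array A or 24 h array C. Feedback inhibitors had 5 of 24 higher and 1 lower (median 0.13), but 4 of each without 24 h array C, and a median of -0.04 without 24 h array B. Dusp1 changed by 0.99 (SE 0.18) and the lipid phosphatase Inpp5d by 1.10 (SE 0.22), while Rgs2, which damps G protein signals, changed by -0.86 (SE 0.17). With median centring 1 of the 24 rose and 2 fell.

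Genes of dendritic cell maturation changed in both directions, with 4 of 27 higher, 7 lower and a median of 0.06. Of all genes 9.64% were higher and 8.73% lower. Stat4, a transcription factor downstream of interleukin 12, went from 2.09, 1.55 and 1.63 to 2.85, 3.35 and 2.88 (1.27, SE 0.18, adjusted p = 0.000612), and Cacnb3, a calcium channel subunit, changed by 1.07 (SE 0.24). The hyaluronan receptor Cd44 went from 1.62, 1.45 and 1.09 to 0.23, 0.36 and 0.25 (-1.11, SE 0.16, adjusted p = 0.000529). Cd80, a ligand for T cell costimulation, changed by -0.67 (SE 0.18, adjusted p = 0.0216), but lost its call in the fit that blocked on slide (-0.41, adjusted p = 0.21), and its second probe gave -0.09. Its partner Cd86 was not called (0.03, SE 0.17, adjusted p = 0.925), nor was Ccr7, the receptor that guides dendritic cells to lymph nodes (0.47, SE 0.26, adjusted p = 0.241). The slide block left 3 rises and 3 falls. The falls numbered 2 without 6 h array A, 4 without 24 h array A and 3 without 24 h array C, and the rises 2 without 6 h array A, 6 h array B or 24 h array C.

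Antigen presentation genes had a median of -0.26 in the MHC class II list and -0.10 in the class I list. Of all genes 9.64% rose and 8.73% fell. Of 17 genes of the MHC class II pathway 1 rose and 0 fell in the limma test; the rise, Rfxank, was lost with slide as a block (0.47, adjusted p = 0.14). H2-Ab1, a class II beta chain, stood at 4.67, 4.62 and 4.41 and then at 4.52, 5.16 and 4.63 (0.20, SE 0.18, adjusted p = 0.476). Ciita, the class II transactivator, changed by -0.79 (SE 0.28, adjusted p = 0.065; the donor block gave 0.00929). Of 15 class I genes 2 rose and 1 fell, and with slide as a block 0 did either; H2-D1 (0.74, SE 0.24, adjusted p = 0.0479) also lost its call in the donor block fit (adjusted p = 0.0545).

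C-type lectins and scavenger receptors, many of which take up or recognise sugars, split. Of 24 tested 8 were lower and 4 higher (median -0.23), beside 8.73% and 9.64% of all genes. With slide as a block 7 were lower and 2 higher. Clec4b1 went from 4.45, 4.36 and 5.02 to 2.92, 3.01 and 1.42 (-2.16, SE 0.38, adjusted p = 0.00221). Clec10a and Mgl2, a pair of galactose-type lectins, changed by -1.40 (SE 0.30) and -1.19 (SE 0.15), and Mertk, a receptor for dying cells, by -1.46 (SE 0.20). The scavenger receptor Marco opposed them, from 6.28, 6.32 and 6.21 to 7.06, 7.08 and 7.57 (0.97, SE 0.21, adjusted p = 0.0072), as did Scarb1 (0.94, SE 0.19). Median centring left 8 falls and 0 rises, and normexp on every local background as deposited 2 falls and 1 rise.

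Several of these lectins are IL-4 targets. Of 22 IL-4 responsive genes 4 fell, namely Mrc1, Clec10a, Mgl2 and Retnla (-1.69, SE 0.42), and 2 rose, with Tgm2, a transglutaminase, going from 3.33, 3.23 and 3.74 to 4.74, 4.70 and 5.2 (1.44, SE 0.18, adjusted p = 0.000231). Retnla lost its call without 6 h array B (-1.6, adjusted p = 0.0522), and its change was 0.05 with the scanner's processed signals. Arg1, a further IL-4 target, was not called (-0.16, SE 0.18, adjusted p = 0.597). Of all genes 8.73% fell and 9.64% rose, and the share of the list that rose was near the latter.

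The late gains were led by secreted defence proteins. Of 22 acute phase, complement and antimicrobial genes 10 rose (9.64% of all genes did) and 5 fell (8.73%), with a median of 0.40. Saa3, an acute phase serum amyloid made by activated myeloid cells, stood at -0.01, 0.86 and -0.57 at 6 h and at 2.05, 3.49 and 3.1 at 24 h. All 24 h arrays were above all 6 h arrays, and the rise was 6.90-fold (2.79, SE 0.38, adjusted p = 0.000421). From an unstimulated mean of -3.33 its level was higher at every later time. Saa1 went from 0.54, 1.35 and -0.07 to 2.21, 3.81 and 3.06 (2.42, SE 0.37, adjusted p = 0.000866), and in both genes donor A was lowest at 24 h.

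Hp, which encodes the haemoglobin scavenger haptoglobin, went from 1.74, 0.80 and 2.03 to 3.98, 3.39 and 3.47 (2.09, SE 0.38, adjusted p = 0.00276). Orm1 changed by 1.29 (SE 0.20), and the iron-siderophore binder Lcn2 by 1.14 (SE 0.30, adjusted p = 0.0213, or 0.059 with slide as a block). Ptx3, a soluble pattern recognition protein, went the other way, from 1.04, 1.13 and -0.04 to -1.26, -1.14 and -1.99 (-2.17, SE 0.30, adjusted p = 0.000464). Lysozyme (Lyz2) changed by -1.59 (SE 0.21). Complement genes divided, since C1s1 (0.95), Cfb (0.82), C1ra (0.81) and C2 (0.51) rose while C1qc (-0.86) and C1qb (-0.52) fell; C1qc lost its call with slide as a block (-0.67, adjusted p = 0.084). With slide as a block 8 members rose and 3 fell, and with median centring 5 rose, Hp no longer among them, and 4 fell; without 6 h array A 3 fell.

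A second late gain was in genes that NRF2 controls, which protect against oxidants and handle iron. Of 28 tested 12 rose and 1 fell, with a median of 0.43, and 10 rose and 0 fell with slide as a block (median 0.46, and 0.56 within slide 4). Hmox1, the haem-degrading enzyme, stood at -2.69, -2.50 and -2.39 at 6 h and at -1.26, -0.93 and -0.22 at 24 h, a rise of 3.30-fold (1.72, SE 0.22, adjusted p = 0.000297). Fth1, the ferritin heavy chain that stores iron, went from 0.96, 1.51 and 0.92 to 2.41, 3.24 and 3.02 (1.76, SE 0.21, adjusted p = 0.000174), and Gstm1, a glutathione transferase, from -0.49, -0.84 and -0.44 to 1.11, 0.63 and 1.63 (1.71, SE 0.20, adjusted p = 0.000191).

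The other NRF2 genes that rose include Gclc (1.13), which limits glutathione synthesis, Srxn1 (1.08), Nqo1 (0.82) and Txnrd1 (0.81), and the metallothionein Mt1 (1.37, SE 0.24). Keap1, the inhibitor of NRF2, was the 1 fall (-0.60, SE 0.15), which slide as a block removed (-0.61, adjusted p = 0.054). Nfe2l2, the gene of NRF2 itself, changed by -0.09 and was not called. The pattern of its antioxidant response element, TGACNNNGC on either strand, was in 8 of 24 promoters of the list (33.3%), against 17.0% of all tested genes with a promoter. Across all genes with a promoter it was in 132 of 882 that rose and 119 of 759 that fell, both shares under 17.0%. Among changes of at least 2-fold it was in 20.8% of genes that rose and 19.8% of those that fell. A link between the pattern and the rises was not tested. Relative to other genes the list stayed high with median centring, where its median was 0.05 and lay 0.23 above that of all genes, but 2 members were then called higher and 1 lower.

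**Figure D5:**
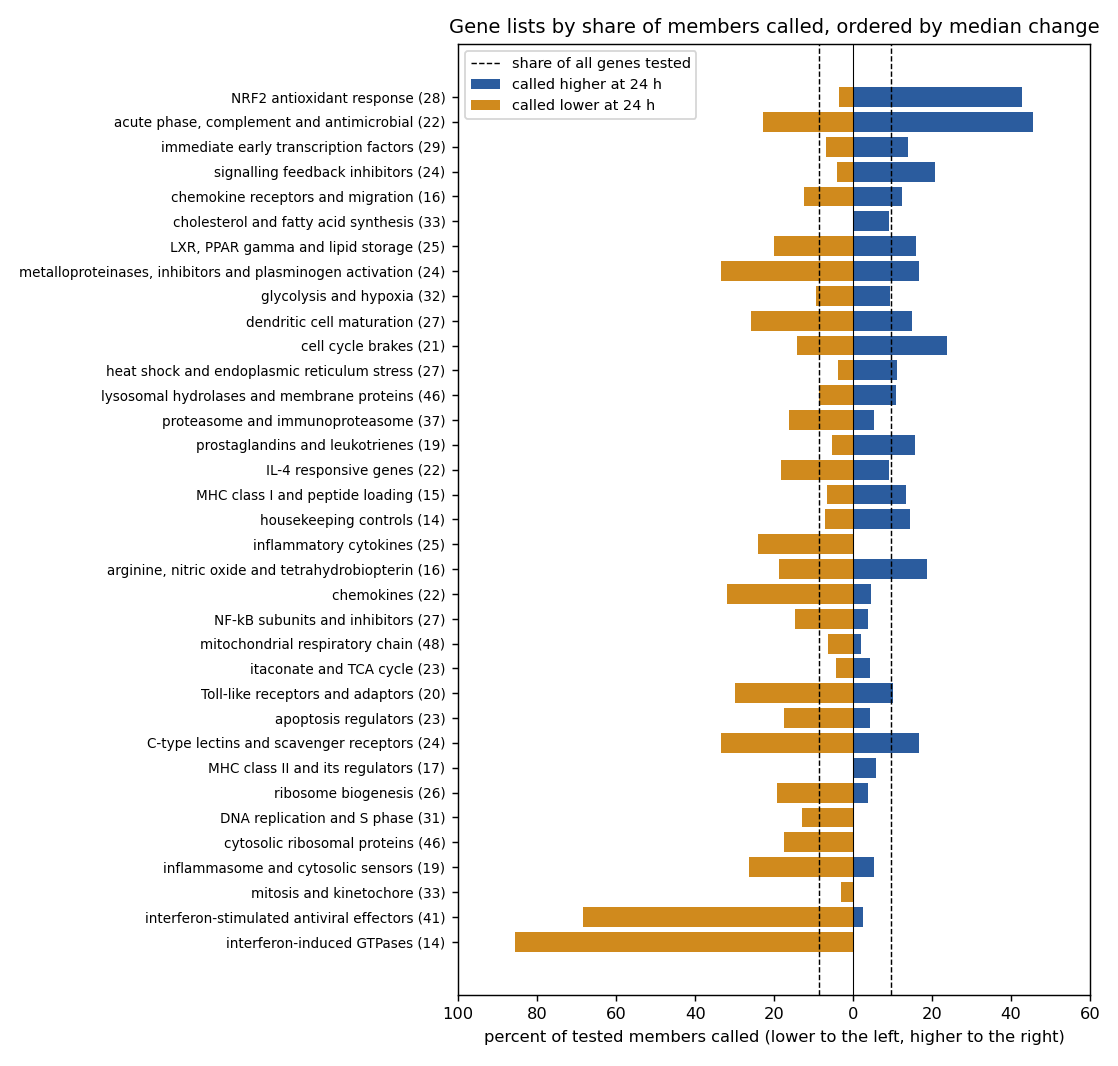
For each of 35 lists of genes by function, bars give the percent of tested members (number in brackets) called higher at 24 h (blue, to the right) and called lower (orange, to the left), ordered by median change. Dashed lines mark the shares of all genes, 9.64% higher and 8.73% lower. Interferon-induced GTPases (12 of 14 lower) and interferon-stimulated genes (28 of 41 lower) reach furthest left, and the acute phase (10 of 22 higher) and NRF2 (12 of 28 higher) lists furthest right.

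Of the 15 largest rises, several fall in none of these groups. Cyp1b1, a cytochrome P450 of oestrogen and xenobiotic metabolism, went from -0.91, -1.24 and -2.09 to 0.49, 1.87 and 1.51 (2.70, SE 0.33, adjusted p = 0.000231). Enpp2, the secreted enzyme autotaxin that makes lysophosphatidic acid, stood at -2.97, -2.80 and -3.36 at 6 h, beside an unstimulated mean of -2.95, and at -0.80, 0.07 and -0.36 at 24 h (2.68, SE 0.20, adjusted p = 2.06e-05). Its mean at 1 h was -3.06, so that among the times measured its rise lay between 6 h and 24 h, and it lost its call with normexp on every local background as deposited. Vnn3, a pantetheinase, went from 1.29, 1.93 and 0.48 to 2.77, 5.05 and 3.38, with donor B highest (2.50, SE 0.46, adjusted p = 0.00324).

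Other rises followed a 6 h mean below that before LPS. Ddit4, an inhibitor of mTORC1 induced by stress, stood at -3.28, -3.30 and -3.26 at 6 h and at -1.69, -0.81 and 0.01 at 24 h (2.45, SE 0.33, adjusted p = 0.000397), and its 24 h mean of -0.83 was near the unstimulated mean of -1.11, from which it was not called different. The stress and growth arrest gene Gadd45g went from -1.84, -1.79 and -1.6 to -0.10, 0.62 and 0.77 (2.18, SE 0.20, adjusted p = 5.7e-05), above its unstimulated mean of -0.29. The tetraspanin Tspan13 changed by 1.88 (SE 0.18) after means of -0.36 before LPS and -1.62 at 6 h. Plac8 (2.46), Ly6c1 (1.74) and the amino acid transporter relative Slc7a4 (1.74) complete the list with Ly6f. All 15 rises kept their call with slide as a block and without any 1 of the 6 arrays.

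Some genes crossed the background. Of the genes tested 40 were well above background on all 24 h arrays and on no 6 h array, and 34 the reverse, a choice that itself needs a difference. Many genes of both sets changed little and were not called. Urad (-0.05) and Rhox6 (-0.03), of the 24 h set, even had log2 changes below 0. The genes named here are among the largest changes of the sets. Ly6f, of the Ly6 surface protein family, was at least 3.35-fold higher at 24 h, Rptn at least 2.78-fold and Susd2 2.12-fold. The collagenase Mmp8 was 1.91-fold lower at 24 h and Has1, a hyaluronan synthase, at least 1.6-fold. Bounds come from the sample channel alone and can hold dye bias, since every sample carried the same dye. On each array of the lower group they use the lowest signal called above background or the gene's own signal, whichever is higher. For Susd2 and Mmp8 this was the gene's own signal, so their values are measured differences. Gsta1 and Csgalnact1 were likewise higher and Il19 lower, without a usable bound, and Comp was not called (adjusted p = 0.116).

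Among genes of growth and division, the mitosis list had few calls beside the shares of all genes, 9.64% higher and 8.73% lower. Of 33 mitosis genes 1 fell and 0 rose in the limma test, though 31 of 33 changes were not above 0 and the median was -0.48 (-1.10 within slide 4); the fall, that of the spindle factor Tpx2 (-1.04, SE 0.26), was lost with slide as a block (-0.72, adjusted p = 0.11). The mean level of the list was spread from -2.71 to -1.53 on the 6 h arrays and from -2.77 to -2.40 on the 24 h arrays, which overlapped, and without 6 h array B 5 members fell. Without 6 h array C, the one 6 h array of slide 4, the median was -0.10. Of 31 replication genes 4 fell and 0 rose (median -0.27, or -0.13 without 6 h array C), and 0 with slide as a block, 2 without 6 h array A or B and 1 without 6 h or 24 h array C. Cyclin D1 (Ccnd1) changed by -1.23 (SE 0.20) and Myc by -1.25 (SE 0.24), while Rb1, the retinoblastoma protein that restrains entry into S phase, changed by 0.79 (SE 0.17) and its relative Rbl1 by -1.17 (SE 0.16). Other Myc probes gave -1.06 and -0.41, the latter not called (limma adjusted p = 0.08). The list of cell cycle brakes also holds the D cyclins Ccnd1, Ccnd2 and Ccnd3, which are not brakes. It had 5 of 21 higher, Ccnd3 among them, and 3 lower, Ccnd1 and Ccnd2 among them. Without 6 h array A, 6 h array B or 24 h array A, 3 were higher.

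Cytosolic ribosomal protein genes had 8 of 46 lower and 0 higher (median -0.29), and with slide as a block 0 lower (median -0.35). The count followed single arrays, since it was 16 without 24 h array B, 1 without any 1 of the 6 h arrays and 0 without 24 h array C, and it was 38 with median centring. Ribosome biogenesis had 5 of 26 lower and 1 higher (median -0.27), with Nhp2 at -0.70 (SE 0.13); without 24 h array C or any 1 of the 6 h arrays 1 fell. The proteasome had 6 of 37 lower and 2 higher (median -0.05), the respiratory chain 3 of 48 lower and 1 higher (median -0.16) and the TCA cycle 1 of 23 each way. The proteasome falls numbered 3 without any 1 of the 6 h arrays and 1 without 24 h array C, and those of the respiratory chain 5 without 24 h array A and 1 without 6 h array A, 6 h array C or 24 h array C. Slide as a block left at most 1 call in each of these 5 lists. In the main fit 8.73% of all genes were lower and 9.64% higher.

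Lipid genes held some of the larger single changes. Of 25 genes of LXR, PPAR gamma and lipid storage 5 fell, Ch25h first, then Pltp, a phospholipid transfer protein (-1.55, SE 0.27), and the lipid droplet protein Plin2 (-0.62, SE 0.11), and 4 rose, a count of 1 or 2 without any 1 array other than 24 h array B. Of those rises Abca1, the cholesterol exporter, kept its call with slide as a block (0.66, SE 0.21), but in 5 of the 6 fits without 1 array it was not called. Pparg was not called (0.13, SE 0.14, adjusted p = 0.577). Of 33 cholesterol and fatty acid genes 3 rose and 0 fell, with 0 rises without 6 h array A, 6 h array B or 24 h array A, 1 without 24 h array C and 6 without 6 h array C. Among 46 lysosomal genes 5 rose (3 without 6 h array C) and 4 fell, with the phosphatase Acp5 at 1.22 (SE 0.31) and the protease cathepsin C (Ctsc) at -1.42 (SE 0.18), the latter from 4.04, 4.51 and 3.83 to 2.67, 3.01 and 2.44. Acp5 lost its call without 6 h array C (1.06, adjusted p = 0.0546) or 24 h array B (0.96, adjusted p = 0.0565). The lysosomal shares that rose and fell were near those of all genes, 9.64% and 8.73%. So was the share of cholesterol and fatty acid genes that rose.

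Among 32 glycolysis and hypoxia genes 3 rose and 3 fell, with 0 falls without 6 h array A and 1 without 24 h array B. Both shares were near those of all genes, 9.64% higher and 8.73% lower. The glucose carrier Slc2a1 changed by 1.26 (SE 0.25), and Vegfa, the vascular growth factor, by 1.32 (SE 0.34, adjusted p = 0.0184, or 0.099 with slide as a block). Prostaglandin and leukotriene genes had 3 of 19 higher and 1 lower, with the leukotriene C4 synthase Ltc4s at 0.91 (SE 0.19) and the phospholipase Pla2g5 at 1.07 (SE 0.12). Ptgs2, the inducible cyclooxygenase, had widely spread levels of 2.88, 3.47 and 0.89 at 6 h and 1.5, 2.96 and 3.46 at 24 h and was not called (0.22, SE 0.58, adjusted p = 0.831). Arginine and nitric oxide genes had 3 of 16 each way, though 0 in either direction without 6 h array A, 0 rises and 1 fall without 6 h array B, and 1 rise without 6 h array C or 24 h array A. In that list Nos2, the inducible nitric oxide synthase, was not called (-0.20, SE 0.27, adjusted p = 0.67).

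Metalloproteinases and their inhibitors had 8 of 24 lower and 4 higher (median 0.08), with 3 and 2 when slide was a block. Osteopontin (Spp1) changed by -1.38 (SE 0.25) and Serpina3f by -1.30 (SE 0.14), and Timp1 and Tgm2 rose. Without 6 h array A 4 fell and 1 rose, and without 6 h array B or 24 h array A 5 fell. Apoptosis genes had 4 of 23 lower and 1 higher, with the death ligand Tnfsf10 at -1.55 (SE 0.15) and its receptor Tnfrsf10b at 0.85 (SE 0.15); the falls numbered 7 without 6 h array C and 2 without 6 h array A, 6 h array B or 24 h array C. Inflammasome and cytosolic sensor genes had 5 of 19 lower and 1 higher (median -0.37), and immediate early transcription factors 4 of 29 higher and 2 lower, with the nuclear receptor Nr4a2 at 1.44 (SE 0.34) and Maff at 0.87 (SE 0.14); 2 of the factors rose without 6 h array A, 6 h array C, 24 h array B or 24 h array C. Heat shock genes had 3 of 27 higher and 1 lower, with Hsph1 at 1.30 (SE 0.26). Chemokine receptors had 2 of 16 each way, with 0 falls without 24 h array C and 1 without any 1 of the 6 h arrays or 24 h array B, and with Cxcr4 at 1.31 (SE 0.15). Housekeeping genes had 2 of 14 higher and 1 lower. For each of these lists the shares of all genes are 9.64% higher and 8.73% lower.

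Markers of cell types were counted to set these changes beside the make-up of the cultures. In RNA of mixed cells, fewer cells of a type and less RNA per cell cannot be told apart. For each marker list the shares of all genes are 9.64% higher and 8.73% lower. Of 13 conventional dendritic cell markers 0 rose and 1 fell (Dpp4, -0.60), a call that the slide block removed (adjusted p = 0.17), and their mean level ran from 2.33 to 2.66 at 6 h and from 2.37 to 2.68 at 24 h. Of 10 macrophage and monocyte markers 4 fell (Mrc1, Lyz2, Mertk and the integrin Itgam, -0.92, SE 0.22) and Cd14 rose; their mean level ran from 2.07 to 2.10 at 6 h and from 1.28 to 1.5 at 24 h. Mrc1, Mertk and Lyz2 also stand in the groups above, so those groups and this marker list share these falls by membership alone. The part of culture make-up in them was not tested. Itgam lost its call without 6 h array A (-0.81, adjusted p = 0.0592) or 24 h array C (-0.71, adjusted p = 0.0518), and its change was 0.02 with normexp on every local background as deposited.

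Of 5 eosinophil markers 2 fell, Ear1 from 6.33, 5.88 and 6.17 to 4.94, 4.77 and 4.02 (-1.55, SE 0.21, adjusted p = 0.000432) and Ear6 (-1.16, SE 0.32). The call of Ear6 was lost without 6 h array A (-1.04, adjusted p = 0.0974), 6 h array C (-1.06, adjusted p = 0.0701) or 24 h array C (-0.73, adjusted p = 0.0752), and its other probe gave 0.05. Of 9 plasmacytoid markers 2 fell, Klk1 (-1.98, SE 0.37, with -0.61 and no call for its second probe) and Tcf4 (-1.25, SE 0.23), and 2 rose. Of 10 neutrophil markers 1 fell (Mmp8), and their mean level ran from 1.05 to 1.66 at 6 h and from 0.90 to 1.55 at 24 h. Of 6 erythroid and megakaryocyte markers the platelet factor Pf4 rose (1.49, SE 0.18), as did carbonic anhydrase 2, Car2 (0.71, SE 0.15). The 5 B cell, 6 T cell, 2 NK cell, 8 mast cell, 7 progenitor and 9 stromal markers tested had 0 calls in the limma fit. Of these 37 entries 3 had an unadjusted limma p under 0.05. Kit and Gata2 are counted in both the mast cell and the progenitor lists.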

How the data were processed

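The deposited scanner files (Agilent Feature Extraction 10.7.3.1, per the file headers) hold intensity values for 45018 spots; the deposited value table holds the authors' processed log2 ratios, for which the submitters' processing notes name limma without its steps. From the intensities (spot and local background medians, since the files hold no means, which the design had named), in R 4.3.3 with limma 3.58.1, background was corrected by normexp (offset 50), with outlier local backgrounds replaced by the array median, and ratios of Cy5 sample over Cy3 reference were loess normalised (span 0.3). The result correlated with the authors' log2 table at r of at least 0.999. Probes well above background on all 3 arrays of 1 group were kept and named by RefSeq accession (22951 of 41174 probes matched), with the brightest per gene. No spot was saturated, 48.2 to 57.6% of probes were above background on the 6 arrays, and the number of arrays limits the precision.

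The model held a mean for each of the 4 groups of 12 arrays. Two-sided moderated tests of 24 h minus 6 h were adjusted over 11108 genes. This main fit held no donor term, so its tests are unpaired. The labels' donor tag (A, B, C) entered only as a block in an alternative fit. Deviations of same-donor arrays correlated at -0.12, 0.41 and 0.14, and those of different donors at -0.46 to 0.41. The labels call the samples biological replicates. Genes were named by rule (the 15 largest rises and falls, up to 4 called members of a list each way, a panel, early genes and genes crossing background). Some genes that this rule names are not reported here. Members, lists and panel were chosen with earlier results of these data known. Alternatives changed the background correction, scaling, filter, probe rule, blocks, weights and arrays. The analysis was tested on simulated data. Figures were drawn with matplotlib 3.10.9.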

Additional observations from a re-analysis of the deposited data

How the results depend on the processing

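With 2041 genes called, 425 by at least 2-fold, and 71 of the early genes called, the following settings moved a count by over 1.5 times, and the cause was not tested. With normexp on every local background as deposited 798 genes were called (471 higher, 327 lower), 271 by at least 2-fold (119 lower; 56.1% higher against 40.7%), and 24 early genes (10 higher, 14 lower). With the scanner's processed signals 741 changed by at least 2-fold (343 higher, 398 lower). With median centring 925 were called (95 higher, so 10.3% against 52.5%), by at least 2-fold 60 rose and 501 fell, and 3 early genes rose. With slide as a fixed block 867 were called (425 higher, 442 lower) and 37 early genes (8 higher, 29 lower). With the 6 arrays alone 1355 were called (688 higher). Without 1 array at a time 1078 to 1821 genes were called (539 to 963 higher, 539 to 891 lower), fewest without 6 h array A, 24 h array C (1272) and 6 h array B (1290), 357 to 520 by at least 2-fold (142 to 222 higher, 207 to 315 lower), and 49 to 83 early genes (13 to 25 higher, 35 to 69 lower).

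With the replicate block on donor 2406 genes were called, and among the named genes it ended the calls of Alox5ap and H2-D1, gave calls to Ifnb1 and Ciita, and changed no other. Of the 30 largest changes, 29 or 30 kept their call under each setting except normexp as deposited, with 24, and the filter on all 12 arrays, where 19 were tested and 19 kept it. Of the 204 called genes that were named, 119 kept the call with slide as a block, 117 with median centring, 94 with normexp as deposited and 130 to 176 without 1 array. Directions that turned were, with normexp as deposited, Nos2 (0.92), Arg1 (0.58), Il6 (0.50), Cd80 (0.30), Tnfsf4 (0.27), Ciita (0.17), H2-T24 (0.12), Ikbke (0.10), Gm2a (0.0322), Itgam (0.024) and Elovl6 (-0.33). With processed signals they were Arg1 (0.25) and Retnla (0.0475). With median centring they were Il1rn (-0.29), Cd86 (-0.25), Il1b (-0.23), H2-Ab1 (-0.22), Pparg (-0.16), Ptgs2 (-0.0434) and Bst2 (-0.0157), and in the Cy5 channel alone Il1rn (-0.20), H2-Ab1 (-0.15), Cd86 (-0.0418) and Il1b (-0.0282). With array weights they were Ptgs2 (-0.20), Cd86 (-0.0933), Il1rn (-0.0504) and Il1b (-0.0314), with the mean of probes Il1rn (-0.0628), and within slide 4 Il6 (0.0316) and Nos2 (0.0207). Without 1 array at a time the changes ran from -0.16 to 0.17 for Cd86, from -0.0679 to 0.38 for Il1b, from -0.0791 to 0.36 for Il1rn, from -0.41 to 0.0364 for Nos2, from -0.0246 to 0.24 for Pparg and from -0.54 to 0.79 for Ptgs2.

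The planned use of gene names from the scanner files was not run, because these files give accessions. The number of arrays, 3 per group, limits what small changes can be called. The setting without 24 h array B was also chosen after seeing the data, since no other array of both groups lay on its slide, and it gave 1799 calls.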
